A study of Homo sapiens with 6 samples.

Results

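The 5 genes CHRNA3, CHRNA5, CHRNB4, CHRNA7 and CHRNB2, taken by name from the 35130 gene names measured, encode subunits of the neuronal nicotinic acetylcholine receptor. The cells were SK-N-BE(2), a human neuroblastoma line with MYCN amplification that the labels trace to bone marrow, and their mRNA was measured by RNA-seq. One group of 3 libraries came from cells given 1 µM NEN for 24 h and the other group of 3 from cells given DMSO, the solvent, for the same time. Both groups are the same line, and the labels call the 3 libraries of a group biological replicates. The labels give NEN by its abbreviation, which in published neuroblastoma work stands for niclosamide ethanolamine, a mitochondrial uncoupler. The question put to the data was how the mRNA of each subunit differed between NEN-treated and DMSO-treated cells. Levels are TPM, a unit scaled by transcript length and by library total, so that levels of different genes can be set side by side. TPM keeps no read counts, and sequencing depth is therefore unknown.

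Nicotinic receptors are ligand-gated cation channels of 5 subunits around a central pore, opened by acetylcholine or nicotine. Autonomic ganglion neurons and adrenal chromaffin cells, which share the sympathoadrenal origin of neuroblastoma, receive their fast excitatory input through receptors built mainly from CHRNA3 and CHRNB4. CHRNA5 is an accessory subunit that joins such receptors and alters their calcium permeability and desensitization, and CHRNB2 is the main beta subunit of brain receptors and can also pair with CHRNA3. CHRNA7 forms receptors of identical subunits with high calcium permeability.

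CHRNA5, CHRNA3 and CHRNB4 lie next to each other on chromosome 15, between the proteasome gene PSMA4 and the protease gene ADAMTS7 in RefSeq order. CHRNA7 lies elsewhere on chromosome 15 and CHRNB2 on chromosome 1. CHRNA3 and CHRNA5 end towards each other on opposite strands. In GENCODE release 29, 147 of the 31-base words of CHRNA3 transcripts (3.07%) lie antisense in CHRNA5 transcripts, and they are 4.0% of the CHRNA5 words. Of the CHRNA5 words 21.9% lie antisense in the gene AC027228.2, and of the CHRNB2 words 4.395% lie antisense in AL592078.1. Whether the quantification used strand is not given in the sources used here, so reads of these stretches may be shared between the genes. CHRNA7 shares 24.96% of its words, in sense, with CHRFAM7A, a fusion gene that holds a partial copy of CHRNA7. They are 78.05% of the CHRFAM7A words, so reads of either gene may be listed under the other. A share of words does not measure the error in TPM, and how uncertain this leaves the CHRNA7 values is not known.

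The stretches of 250 bases before the transcription start are shown for 4 of the 5 genes, because the list of nicotinic promoter regulators below includes factors that bind GC boxes and the EGR1 motif. They come from RefSeq on GRCh38.p14, which is not the build named for the expression files (hg19). The CHRNA3 stretch lies at chr15:78620997-78621246 on the minus strand, that of CHRNB4 at chr15:78641211-78641460 on the minus strand, that of CHRNA7 at chr15:32030233-32030482 on the plus strand and that of CHRNB2 at chr1:154567528-154567777 on the plus strand. Capitals mark each match to the GC box (GGGCGG) or to the EGR1 motif (GCGNGGGCG) on either strand. These motifs can overlap.
CHRNA3: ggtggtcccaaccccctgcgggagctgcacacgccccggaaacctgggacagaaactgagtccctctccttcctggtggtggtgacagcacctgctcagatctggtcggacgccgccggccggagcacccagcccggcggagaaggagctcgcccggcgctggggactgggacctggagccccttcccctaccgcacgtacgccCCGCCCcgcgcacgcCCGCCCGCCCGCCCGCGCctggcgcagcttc
CHRNB4: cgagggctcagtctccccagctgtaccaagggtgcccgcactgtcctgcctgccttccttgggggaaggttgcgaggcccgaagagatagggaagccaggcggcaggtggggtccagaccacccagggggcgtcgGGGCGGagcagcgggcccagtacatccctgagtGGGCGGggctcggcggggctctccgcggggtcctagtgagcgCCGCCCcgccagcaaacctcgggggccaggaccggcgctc
CHRNA7: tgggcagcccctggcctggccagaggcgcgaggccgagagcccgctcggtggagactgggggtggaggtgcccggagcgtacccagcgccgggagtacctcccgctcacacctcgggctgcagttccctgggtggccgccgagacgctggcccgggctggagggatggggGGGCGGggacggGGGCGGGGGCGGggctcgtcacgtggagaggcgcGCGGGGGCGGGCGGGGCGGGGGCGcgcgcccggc
CHRNB2: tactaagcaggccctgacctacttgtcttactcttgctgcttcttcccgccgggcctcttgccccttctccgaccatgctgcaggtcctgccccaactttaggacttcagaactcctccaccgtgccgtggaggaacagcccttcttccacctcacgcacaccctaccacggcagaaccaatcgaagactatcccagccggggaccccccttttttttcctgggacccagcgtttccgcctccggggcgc

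The CHRNA7 stretch held 6 GC boxes and 3 EGR1 motifs, that of CHRNA3 4 GC boxes and 1 EGR1 motif, and that of CHRNB4 3 GC boxes. The CHRNB2 stretch has neither in its letters. Among 27305 stretches of the same length, 42.3% hold a GC box and 8.25% an EGR1 motif. GC content was 80.4% for CHRNA7, 73.6% for CHRNA3, 72.4% for CHRNB4 and 60.4% for CHRNB2, where the median over all such stretches is 58.0%. The E box CANNTG, a core bound by basic helix-loop-helix factors, occurred in the stretches of CHRNB4 (2 matches), CHRNA3 (1) and CHRNA7 (1), and in 62.2% of all stretches. The match in CHRNA7 is also a CACGTG, the form bound by USF1, which 6.49% of stretches hold. The ETS core GGAA had 5 matches in the CHRNB2 stretch, 3 each in those of CHRNA3 and CHRNB4 and 1 in that of CHRNA7, and 92.8% of stretches hold it. The homeodomain core TAAT is in none of the 4 stretches and in 48.2% of all. All motifs were sought on both strands, and a match is a description of the letters only.

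CHRNA5 and CHRNB2 mRNA fell in NEN-treated cells, while CHRNA3, CHRNB4 and CHRNA7 did not pass the test. CHRNA5 stood at 71.8% and CHRNB2 at 77.8% of its DMSO mean. CHRNA3, the most abundant of the 5 by a wide margin, stood at 89.3% and CHRNB4 at 98.1%. A gene was tested if its 6 libraries averaged 1 TPM or more, which left 12576 genes, among them all 5 subunits. Fold changes are log2 differences of TPM + 1, NEN over DMSO, ± SE, a scale that understates the change of low genes. They come from limma fitted to all genes tested, with Benjamini-Hochberg adjusted p-values and a threshold of 0.05. The p-values set the group difference against the spread within the groups of these 6 libraries, which limma estimates with help from all genes tested. Of the 5 subunits 2 fell, where 16.5% of all genes tested fell, 13.5% rose and 30.0% changed in either direction. With 5 genes, no more is read from that count.

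CHRNA3, the ligand-binding alpha subunit of the ganglionic receptor, had 151.7, 130.3 and 136.7 TPM in NEN replicates 1 to 3, against 168.2, 146.9 and 153.4 TPM in DMSO replicates 1 to 3. The groups overlapped, since NEN replicate 1 lay above DMSO replicate 2. The means were 139.6 ± 11.0 TPM in NEN and 156.2 ± 10.9 TPM in DMSO libraries (SD, n = 3 each). Its fold change of -0.16 ± 0.08 had an adjusted p = 0.162 in limma, with a 95% interval from -0.35 to 0.02.

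CHRNB4, the beta partner of CHRNA3 in ganglia, had 33.9, 32.0 and 33.8 TPM in NEN libraries, against 38.1, 31.2 and 32.3 TPM in DMSO libraries. All 3 NEN values lay inside the range of the DMSO values, which DMSO replicate 1 widened. The fold change was -0.02 ± 0.09 (limma, adjusted p = 0.884), with a 95% interval from -0.24 to 0.20. Its sign turned with the scaling, to 0.0026 after median-ratio scaling and 0.028 after quantile normalization, and without DMSO replicate 1 (0.064) or NEN replicate 2 (0.0044).

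CHRNA5, the accessory subunit, had 18.6, 19.1 and 18.8 TPM in NEN libraries, against 26.5, 27.8 and 24.2 TPM in DMSO libraries. Every NEN library lay below every DMSO library, and the NEN values lay closer together than the DMSO values. It averaged 18.8 ± 0.26 TPM in NEN and 26.2 ± 1.8 TPM in DMSO libraries (SD, n = 3 each), a fold change of -0.45 ± 0.08 (limma, adjusted p = 0.00753).

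CHRNB2, the beta subunit typical of brain receptors, had 35.9, 34.3 and 34.4 TPM in NEN libraries, against 44.2, 45.7 and 44.5 TPM in DMSO libraries. Its groups were also separate. The means were 34.8 ± 0.90 TPM in NEN and 44.8 ± 0.79 TPM in DMSO libraries (SD, n = 3 each), with a fold change of -0.35 ± 0.06 (limma, adjusted p = 0.00696). Groups that did not overlap, in either direction, were thus seen for 2 of the 5 subunits and for 46.8% of all genes tested. Both falls passed the threshold under all 14 alternatives tried, with adjusted p from 0.00605 to 0.0298 for CHRNA5 and from 0.00592 to 0.0306 for CHRNB2 in limma.

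CHRNA7, the subunit of the homomeric receptor, was near the low end of the genes tested, with 1.15, 2.34 and 1.79 TPM in NEN libraries, against 1.79, 2.44 and 1.69 TPM in DMSO libraries. NEN replicate 1 was the lowest of the 6 and the groups overlapped. The fold change of -0.12 ± 0.24 (limma, adjusted p = 0.732) had a 95% interval from -0.68 to 0.43 and became 0.045 without NEN replicate 1. CHRFAM7A was listed at 0 in every library.

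**Figure D1:**
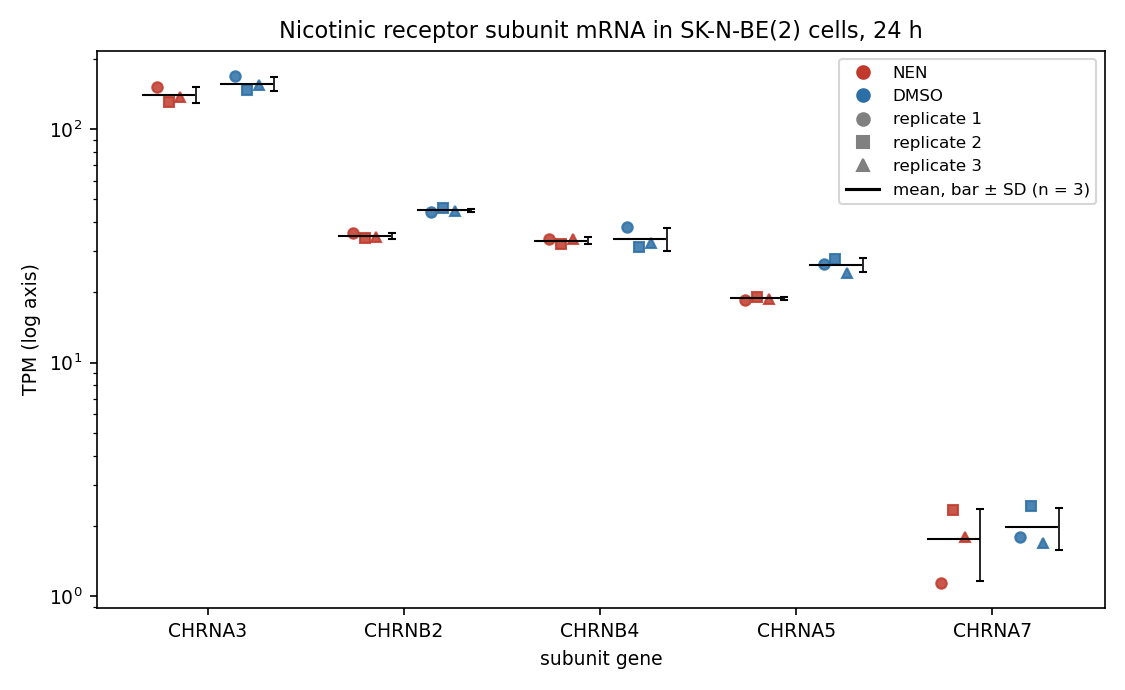
TPM of the 5 subunit genes on a log axis, ordered by mean level, with NEN libraries to the left of DMSO libraries for each gene. Points are single libraries with a shape per replicate number, lines are means and bars are SD (n = 3). CHRNB2 and CHRNA5 show separate groups, while the other 3 overlap.

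The subunits kept 1 order of level in all 6 libraries, with CHRNA3 first, then CHRNB2, CHRNB4, CHRNA5 and CHRNA7. CHRNA3 exceeded CHRNB2, the next, 4.0-fold ± 0.21 in NEN and 3.49-fold ± 0.30 in DMSO libraries (SD, n = 3 each). The mean level of CHRNA3 was above that of 92.7% of genes tested, against 72.8% for CHRNB2, 68.4% for CHRNB4, 57.5% for CHRNA5 and 7.86% for CHRNA7. By the mean over all 6 libraries, CHRNB2 (39.8 TPM) and CHRNB4 (33.6 TPM) were the closest neighbours in that order. By the DMSO means alone, CHRNB4 (33.9 TPM) lay closer to CHRNA5 (26.2 TPM) than to CHRNB2 (44.8 TPM). CHRNB2 stood at 1.06, 1.07 and 1.02 times the level of CHRNB4 in NEN libraries, against 1.16, 1.47 and 1.38 times in DMSO libraries. In NEN libraries their ranges came close without overlapping, at 34.3 to 35.9 TPM for CHRNB2 and 32.0 to 33.9 TPM for CHRNB4.

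**Figure D2:**
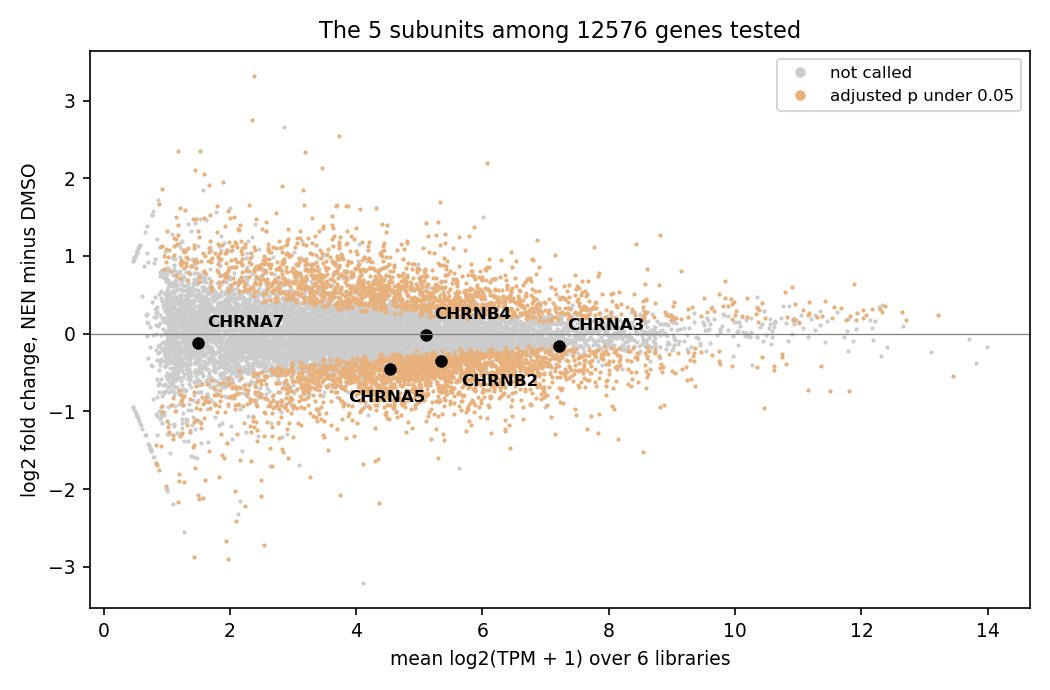
Log2 fold change (NEN minus DMSO, of TPM + 1) against mean log2(TPM + 1) for the 12576 genes tested, with genes past an adjusted p of 0.05 in colour and the 5 subunits in black. CHRNA5 and CHRNB2 lie among the genes that fell, at -0.45 and -0.35, and CHRNB4 lies near 0.

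Ratios between subunits were taken within each library. The ratio of CHRNA5 to CHRNA3 was 0.123, 0.147 and 0.137 in NEN libraries, against 0.158, 0.189 and 0.158 in DMSO libraries, with no overlap. On the log2 scale the difference was -0.31, with a two-sided exact permutation p = 0.1, the smallest that 3 against 3 libraries can give (adjusted p = 0.175 over 7 such values, by Benjamini-Hochberg). For CHRNB4 to CHRNA3, the 2 subunits of the ganglionic receptor, the ratio was 0.224, 0.246 and 0.247 in NEN libraries, against 0.227, 0.212 and 0.211 in DMSO libraries, and the groups overlapped (log2 difference 0.14, exact permutation p = 0.2, adjusted p = 0.28). The ratio of CHRNA5 to CHRNB4 was 0.548, 0.596 and 0.555 in NEN libraries, against 0.696, 0.893 and 0.748 in DMSO libraries. This last ratio, those of CHRNB2 to CHRNB4 and CHRNA3 to CHRNB2, and the summed TPM were chosen after the values were seen, and none of these ratios can reach 0.05 at this group size.

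Of the summed TPM of the 5 subunits, CHRNA3 made up 61.1% ± 1.6 in NEN and 59.4% ± 1.3 in DMSO libraries (SD, n = 3 each). CHRNB4 made up 14.6% ± 0.47 in NEN and 12.9% ± 0.73 in DMSO libraries. CHRNB2 made up 15.3% ± 0.43 in NEN and 17.1% ± 1.1 in DMSO libraries, and CHRNA5 8.26% ± 0.53 in NEN and 9.97% ± 0.85 in DMSO libraries. The share of CHRNA7 was 0.78% ± 0.30 in NEN and 0.754% ± 0.18 in DMSO libraries. The shares of CHRNB4, CHRNB2 and CHRNA5 did not overlap between groups (two-sided exact permutation p = 0.1 for each, the smallest possible, adjusted p = 0.175 over the 7 values). Within a library a share that falls must raise others, so these are not separate results. The CHRNB4 share was higher in NEN libraries although its TPM was not, at 33.2 ± 1.1 in NEN and 33.9 ± 3.7 in DMSO libraries. The sum itself was 241.3, 218.0 and 225.4 TPM in NEN libraries, against 278.9, 254.1 and 256.2 TPM in DMSO libraries, so that each NEN library was below each DMSO library. In bulk samples, fewer cells with a transcript and less of it per cell cannot be told apart.

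**Figure D3:**
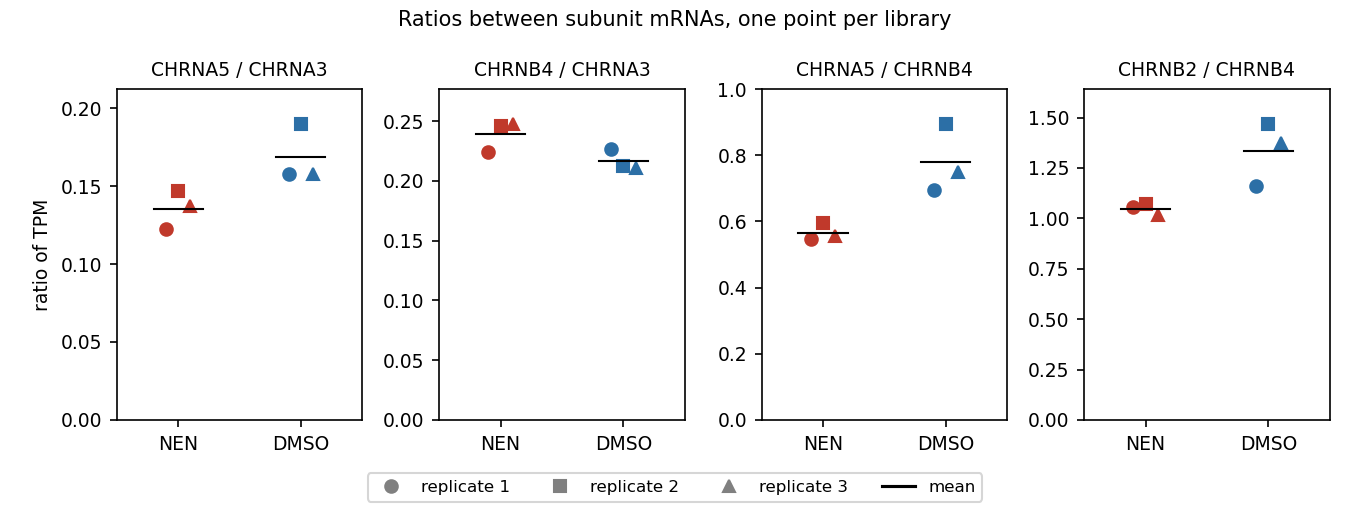
Ratios of TPM between pairs of subunits, 1 point per library with the group mean as a line, NEN left and DMSO right, each axis starting at 0. The CHRNA5 to CHRNA3, CHRNA5 to CHRNB4 and CHRNB2 to CHRNB4 ratios are lower in every NEN library than in any DMSO library, and the CHRNB4 to CHRNA3 ratio overlaps.

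The other nicotinic subunits were low or listed at 0. A listed 0 in these files can be a failed estimate and is not read as absence of the mRNA, here or for the genes listed at 0 elsewhere. Of 12 further symbols, CHRNA1, CHRNA4, CHRNE and CHRFAM7A were at 0 in every library, and with these 4 included 10 lay under the filter, none above 1.13 TPM in any library. CHRNB1, the beta subunit of muscle receptors, had 4.32, 3.86 and 2.54 TPM in NEN libraries, against 1.74, 1.71 and 2.05 TPM in DMSO libraries, and rose by 0.67 ± 0.21 (limma, adjusted p = 0.0453). In its transcripts 12.8% of words are shared in sense with the gene AC113189.4, so reads may be split between them. CHRNB1 missed the threshold without NEN replicate 1 (0.55) or 2 (0.62), or without DMSO replicate 1 (0.65), 2 (0.64) or 3 (0.73), and also with no filter (adjusted p = 0.0746 in limma) and after quantile normalization (adjusted p = 0.0530). Of the 2 tested 1 rose, where 13.5% of all genes tested rose, and their median was 0.68. CHRNA2, an alpha subunit of brain receptors, had 2.84, 1.71 and 0.612 TPM in NEN libraries, against 0.254, 0.468 and 1.15 TPM in DMSO libraries, and did not pass (0.69 ± 0.39, limma, adjusted p = 0.217). The alpha subunit that joins CHRNB1 in muscle, CHRNA1, was thus listed at 0 beside it, as was CHRNA4, the usual brain partner of CHRNB2.

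Proteins that fold, assemble or modulate nicotinic receptors include RIC3, an endoplasmic reticulum chaperone best known for CHRNA7. RIC3 had 4.27, 3.11 and 3.88 TPM in NEN libraries, against 6.69, 6.25 and 6.33 TPM in DMSO libraries, and fell by 0.65 ± 0.14 (limma, adjusted p = 0.0146). Its groups were separate. Of the 16 genes of this list 8 were tested, 4 fell and the other 4 did not pass, where 16.5% of all genes tested fell, and the median fold change was -0.19 where that of all genes tested was -0.02. RER1, a sorting receptor that holds unassembled muscle receptor subunits in the early secretory pathway, fell to 78.2 ± 10.9 TPM in NEN, against 117.2 ± 12.2 TPM in DMSO libraries. UBXN2A, which in rodents binds the CHRNA3 protein and slows its degradation, fell by 0.40 ± 0.09 (limma, adjusted p = 0.0141, lost without NEN replicate 3, at -0.38). YWHAH, a 14-3-3 protein that binds CHRNA4, fell by 0.18 ± 0.05 (limma, adjusted p = 0.0260). The YWHAH call was lost after median-ratio scaling (-0.16) and quantile normalization (-0.11), and without NEN replicates 1 (-0.19), 2 (-0.18) or 3 (-0.18) or DMSO replicates 2 (-0.20) or 3 (-0.18), and with plain limma settings (adjusted p = 0.0896). TMEM35A, the chaperone NACHO, listed under its older symbol TMEM35, lay under the filter with 0.18, 1.19 and 0.229 TPM in NEN libraries, against 0.803, 0.941 and 0.518 TPM in DMSO libraries.

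Among genes that make, move or break down acetylcholine, SLC18A3, the vesicular acetylcholine transporter, had 32.6, 29.7 and 34.7 TPM in NEN libraries, against 57.9, 50.8 and 53.9 TPM in DMSO libraries. It fell by 0.73 ± 0.09 (limma, adjusted p = 0.00146), with separate groups. COLQ, the collagen tail that anchors acetylcholinesterase, fell to 5.36, 5.46 and 3.97 TPM in NEN libraries, against 13.7, 8.56 and 9.07 TPM in DMSO libraries (-0.93 ± 0.20, limma, adjusted p = 0.0129). SLC44A2, a choline transporter-like protein, rose by 0.66 ± 0.14 (limma, adjusted p = 0.0141). These were the 3 changes among 9 tested members of 11, where 30.0% of all genes tested changed in either direction. The median fold change of the 9 was -0.09, where that of all genes tested was -0.02. CHAT, the enzyme that makes acetylcholine and whose gene also holds SLC18A3, had 3.63, 0.837 and 0.784 TPM in NEN libraries, against 1.87, 1.81 and 1.89 TPM in DMSO libraries, with no call (limma, adjusted p = 0.721). Whether transcripts of these 2 genes share stretches whose reads could be counted for either was not measured. PRIMA1, the membrane anchor of cholinesterases, had 7.31 TPM in NEN replicate 1 and 25.6 and 28.98 TPM in the other NEN libraries, against 30.6, 28.9 and 25.6 TPM in DMSO libraries, and 1 library thus stands apart in a fold change of -0.64 ± 0.44 that did not pass (limma, adjusted p = 0.317). BCHE, which encodes butyrylcholinesterase, had 42.8 ± 1.4 TPM in NEN and 45.6 ± 2.8 TPM in DMSO libraries, while ACHE stayed under 1 TPM in every library and SLC5A7, the neuronal choline uptake transporter, was listed at 0.

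Of the 5 muscarinic receptors, the G protein-coupled receptors for acetylcholine, 2 were tested. CHRM1 had 9.80, 10.1 and 9.81 TPM in NEN libraries, against 14.4, 12.2 and 15.2 TPM in DMSO libraries, and fell by 0.45 ± 0.11 (limma, adjusted p = 0.0225). CHRM1 no longer passed without NEN replicate 1 (-0.44), 2 (-0.46) or 3 (-0.44) and without DMSO replicate 1 (-0.42) or 3 (-0.39). CHRM5 did not pass (-0.30 ± 0.33). Of the 2 tested 1 thus fell, where 16.5% of all genes tested fell. The median of both was -0.38, where that of all genes tested was -0.02.

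Other channels of the same pentameric family, those for GABA, glycine and serotonin, gave 7 tested members of 30. Of these 1 rose and 1 fell, where 13.5% of all genes tested rose and 16.5% fell, and their median was 0.06. GABRB1, a GABA receptor beta subunit, rose to 7.58 ± 0.96 TPM in NEN, against 3.49 ± 1.0 TPM in DMSO libraries (SD, n = 3 each).

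**Figure D4:**
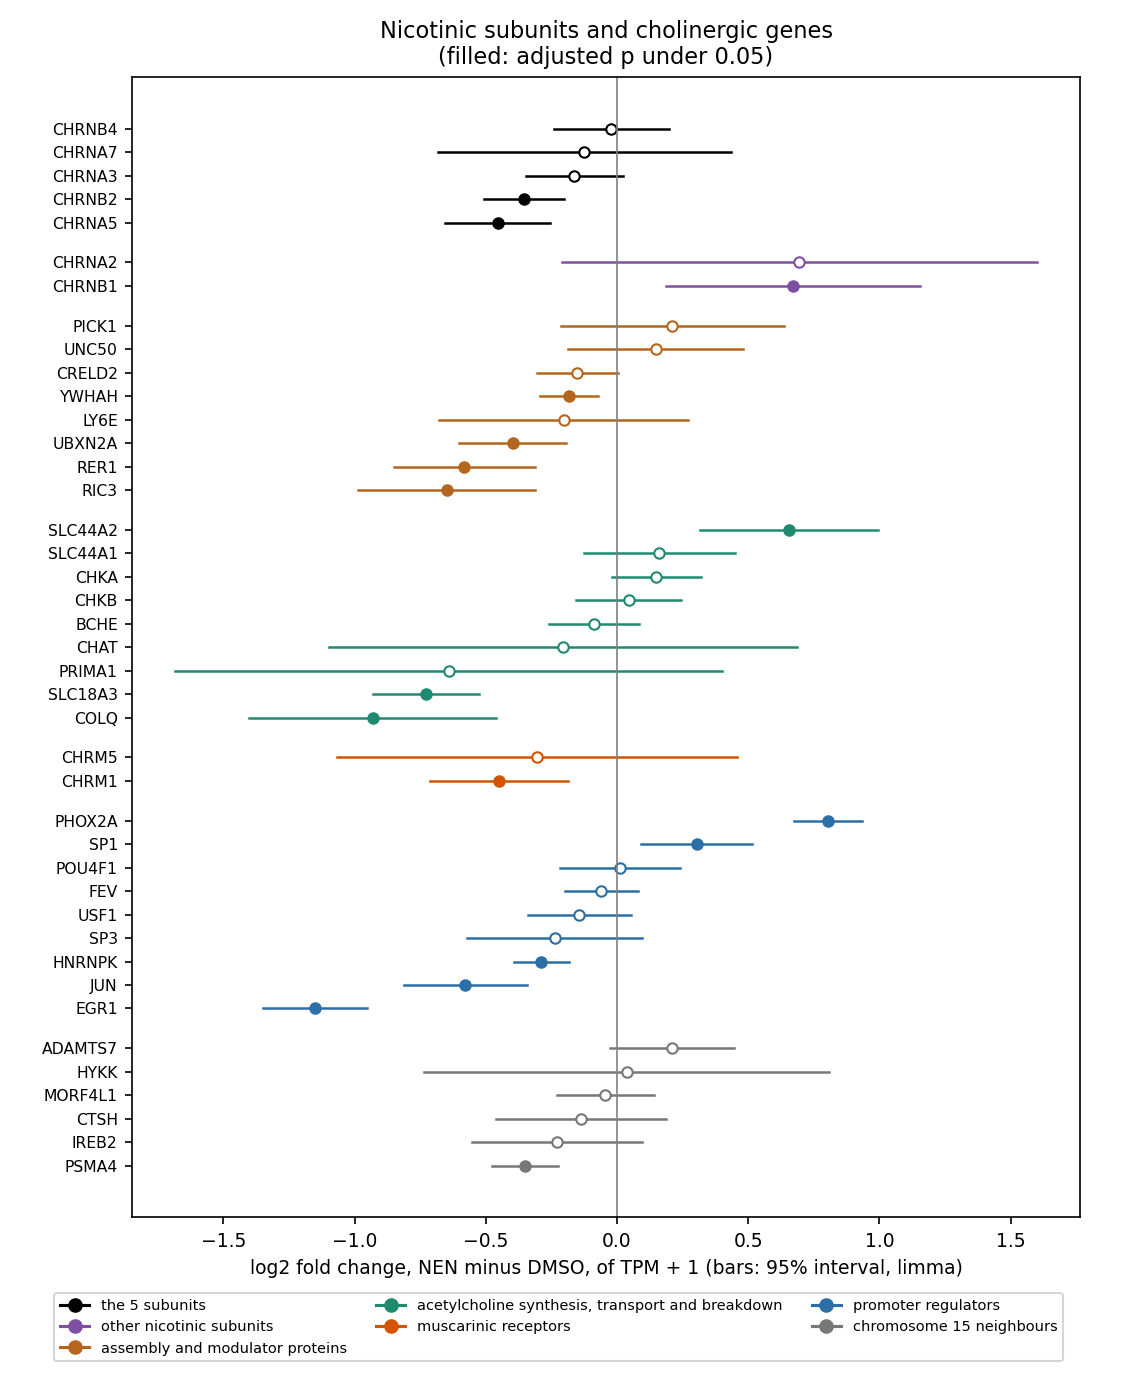
Log2 fold changes (NEN minus DMSO, of TPM + 1) with 95% intervals from limma for the 5 subunits and tested members of 6 lists, 1 of them not shown. Filled points passed an adjusted p of 0.05, and CHRNA5 and CHRNB2 are the filled points among the 5 subunits.

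Transcription factors reported to act on nicotinic subunit promoters went both ways. Of 10 tested members of 13, 2 rose and 4 fell, where 13.5% of all genes tested rose and 16.5% fell. The median was -0.19, where that of all genes tested was -0.02. PHOX2A, which activates the CHRNA3 promoter, had 786.8, 719.5 and 741.1 TPM in NEN libraries, against 445.8, 416.2 and 422.8 TPM in DMSO libraries (0.80 ± 0.06). Its groups were separate, while CHRNA3 itself did not pass the test. EGR1, an immediate early factor that acts on the CHRNA7 promoter in bovine chromaffin cells, had 10.0, 9.80 and 9.88 TPM in NEN libraries, against 22.7, 23.6 and 23.3 TPM in DMSO libraries (-1.15 ± 0.08). In rat, JUN and HNRNPK act on the CHRNB4 promoter with SP1. JUN fell by 0.58 ± 0.10, HNRNPK fell by 0.29 ± 0.05, and SP1 rose by 0.30 ± 0.09. The adjusted p of these 5 genes in limma lay between 0.000295 and 0.0409. The SP1 call was lost without NEN replicate 1 (0.26), 2 (0.34) or 3 (0.31) and without DMSO replicate 2 (0.27) or 3 (0.27), with no filter (adjusted p = 0.0779 in limma) and with plain limma settings (adjusted p = 0.0639). FEV, an ETS factor that activates CHRNB4 in rat, was abundant in both groups, with 512.3 ± 11.6 TPM in NEN and 534.5 ± 34.5 TPM in DMSO libraries. REST, which silences CHRNB2 outside neurons, stayed under 1 TPM in all 6 libraries. Whether any of these factors bears on a subunit was not tested.

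Of the 6 genes beside the chromosome 15 cluster, PSMA4 fell, with 254.5, 253.6 and 253.5 TPM in NEN libraries, against 312.3, 343.6 and 316.0 TPM in DMSO libraries (-0.35 ± 0.05, limma, adjusted p = 0.00376). The neighbours IREB2, HYKK, ADAMTS7, MORF4L1 and CTSH did not pass. Of the 6 genes 1 thus fell, where 16.5% of all genes tested fell, and the median of the 6 was -0.09. CHRNA5 and PSMA4 lie next to each other and both fell, while CHRNA3, CHRNB4 and the other 5 neighbours did not pass. Whether position on the chromosome bears on these changes was not tested.

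The likeness of other genes was measured as the root mean square difference in log2(TPM + 1) deviations over the 6 libraries, among 7904 protein-coding genes that averaged 10 TPM or more. Closest to CHRNA5 were CALM2, a calmodulin gene (0.027), and DYNC1LI2, a dynein light intermediate chain (0.031). CBX5, which encodes the heterochromatin protein HP1 alpha (0.019), and CDH2, N-cadherin (0.026), were closest to CHRNB2. CHRNA3 was nearest to GSTT2B (0.027), which has a near-identical copy in the genome, and SRC (0.030), and CHRNB4 to ARHGEF11 (0.021) and ODC1 (0.026). For CHRNA7 the nearest were DPY19L3 (0.078) and NCK1 (0.084). Over 6 libraries of 2 groups this likeness is a description only.

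Markers of the noradrenergic neuroblastoma cell were present in every library, and 7 of 10 rose, where 13.5% of all genes tested rose, among them DBH, which makes noradrenaline, at 605.6 ± 20.7 TPM in NEN and 454.6 ± 21.0 TPM in DMSO libraries. Skeletal muscle markers, the cell type in which CHRNB1 is normally abundant, summed to 2.06 to 3.58 TPM in NEN and 1.51 to 3.54 TPM in DMSO libraries, with MYOD1, MYF5, MYF6 and TNNT3 at 0. Schwann cell markers summed to 1.82 to 3.95 TPM in NEN and 3.13 to 3.62 TPM in DMSO libraries, and endothelial and epithelial markers to 2.08 to 4.82 TPM in NEN and 2.28 to 2.68 TPM in DMSO libraries, with KRT5 at 0. Of the 6 stromal markers 4 were tested and 1 rose, PDGFRB. Its level was 22.0 ± 2.5 TPM in NEN and 10.1 ± 2.1 TPM in DMSO libraries. The other tested stromal markers, COL1A1 (-0.05), COL1A2 (-0.49) and DCN (-0.34), did not pass. The sum of the 6 was 25.9 to 31.2 TPM in NEN and 16.1 to 20.9 TPM in DMSO libraries, with PDGFRB the highest in each library. Leukocyte markers summed to 15.2 to 17.2 TPM in NEN and 7.41 to 11.1 TPM in DMSO libraries, nearly all from CD68, the single tested member of 6, which rose, while PTPRC, the defining leukocyte marker, stayed under 1 TPM. The part of these markers in the subunit values was not tested.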

How the data were processed

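Each library's deposited file holds TPM for 35130 gene names. Per the submitters' processing notes the authors used kallisto and the hg19 build; its version, the summing to genes and the use of strand are not given. The labels' protocol mentions polyA selection as well as depletion of rRNA. TPM totals ran from 929054 to 933500 a library, and depth is unknown.

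The members and lists were chosen with earlier results of these data known. Genes averaging 1 TPM or more were tested as log2(TPM + 1) with limma 3.58.1 (R 4.3.3), with treatment as the one term and its trend and robust options on, a fit tested on simulated data. Ratios and shares per library were compared by exact permutation in scipy 1.17.1. Lists are given by counts and medians, with no list test, and 140 of 141 list symbols matched directly and 1 by an older symbol. Named genes were the 5 members, the other nicotinic subunits, up to 6 called genes per list, genes given as defining members of a list, and the 2 nearest genes to each member. Protein-coding names for that search, promoter sequences and gene order came from RefSeq (GRCh38.p14), and transcript words from GENCODE release 29. Values of some list genes are not reported here, though list counts include them. Same-numbered libraries did not deviate together (correlations 0.0117, -0.00755 and -0.0279), so no block was used. Alternatives were a replicate block, each library left out, no filter or 5 TPM, 2 scalings, plain limma settings and pseudocounts of 0.1 and 5.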

Additional observations from a re-analysis of the deposited data

How the results depend on the processing

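Of 599 alternative values computed, 523 kept their direction and side of the threshold or stayed within the set range. That range was a fixed fold limit for counts and the pooled SD of the groups for ratios and shares. The 523 include list counts of 0 that stayed at 0 in all 14 alternatives, which say little about stability. These were rises among assembly proteins, muscarinic receptors and chromosome 15 neighbours, and falls among other nicotinic subunits. The replicate numbers are shared only as labels. With the replicate block, CHRNA5 (-0.45, adjusted p = 0.0258) and CHRNB2 (-0.35, adjusted p = 0.0281) remained called in limma. Both groups hold the same numbers, so the block cannot move a fold change or a difference in ratio or share, only its p-value. The unmoved ratios and shares under the block are therefore no check, though they are counted among the 523. The block left 0 called genes among the other nicotinic subunits that rose, the muscarinic receptors that fell and the other pentameric channels that fell, where the fit without it called 1 each. CHRNB1 (0.67, adjusted p = 0.0892), CHRM1 (-0.45, adjusted p = 0.0548) and YWHAH (-0.18, adjusted p = 0.0629) lost their calls under the block in limma. CHRNB4 turned to 0.0026 with median-ratio scaling and 0.028 with quantile normalization. The rise among other nicotinic subunits also went to 0 with no filter, 5 TPM and quantile normalization. Called rises among promoter regulators went to 1 with no filter and with plain limma settings. The other pentameric channels had 2 rises with no filter, and 0 falls with 5 TPM and 2 with plain settings. On leaving out single libraries, the genes called as rising over the whole table ranged from 1063 (without NEN replicate 1) to 1554. In the same runs CHRNB4 lay between -0.078 and 0.064 and CHRNA7 between -0.27 and 0.045. Counts ranged from 0 to 1 for other nicotinic subunits that rose, muscarinic receptors that fell and other pentameric channels that fell, from 2 (without NEN replicate 3) to 4 for assembly proteins that fell, and from 1 to 2 for promoter regulators that rose. The cause of these changes was not tested, beyond the smaller number of libraries. Unknown depth limits CHRNA7 and the other subunits near 1 TPM most.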
